A study of Homo sapiens with 8 samples.

Results

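The libraries numbered 1 and 2 were compared with those numbered 3 and 4 in RNA sequencing of human esophageal epithelial cells, which makes 4 libraries against 4 of the 8 in the series. The comparison used shCtrl 1, shCtrl 2, HIF1A-KD 1 and HIF1A-KD 2 on one side and shCtrl 3, shCtrl 4, HIF1A-KD 3 and HIF1A-KD 4 on the other, and the numbers are those of the sample titles. The split was chosen because it was seen in these same libraries, on a principal component that uses every expressed gene, so each difference between the number pairs is given as a description with no test. Tests were kept for what the split did not use, namely whether the difference was unlike in the 2 lines and how the lines themselves differed. The labels give no meaning to the numbers, and name no culture date, passage or sequencing run for them.

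The cells were EPC2-hTERT, an esophageal epithelial line made immortal with telomerase. The shCtrl cells carried a control short hairpin RNA and the HIF1A-KD cells a hairpin against HIF1A, both delivered by lentivirus, and the labels do not say whether either line was a clone or whether the 4 libraries of a line came from separate cultures. All 8 libraries came from cells grown on membranes with 0.4 µm pores, given 1.8 mM calcium chloride for 5 days after confluence and left at the air-liquid interface for 4 days. The protocol text also names dimethyl sulfoxide and 1 mM dimethyloxalylglycine, an inhibitor of the hydroxylases that mark HIF proteins for decay, for 18 h, and assigns neither to a library.

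Keratinocytes at an air-liquid interface build a layered sheet. Cells at the base divide and hold keratins KRT5, KRT14 and KRT15 under the transcription factor TP63, and cells above them leave the cell cycle and switch genes. In skin the last step is a cornified envelope, a shell of cross-linked loricrin, late cornified envelope (LCE) and small proline-rich proteins sealed with sterols and ceramides. The esophagus lining normally stays uncornified and uses the mucosal keratins KRT4 and KRT13, cornulin and surface mucins. Notch signalling, immediate early factors and the sterol pathway are all active in this program.

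HIF1A, the target of the hairpin (chromosome 14, positions 62162119 to 62214977 in the hg19 coordinates of the deposited table), stood at 95.2, 51.4, 89.8 and 122 RPKM in shCtrl 1 to 4, and 27.6, 18.98, 54.8 and 45.04 in HIF1A-KD 1 to 4. RPKM are reads scaled by gene length in kilobases and by the size of the library. The log2 difference of libraries 1 and 2 from libraries 3 and 4 was −0.58 in shCtrl, where shCtrl 1 exceeded shCtrl 3 and the pairs overlapped, and −1.11 in HIF1A-KD, where they did not. The lines did not overlap within either number pair. Recovered read totals ran from 38068729 to 65326907, and the number pairs overlapped in depth. The first principal component held 41.9% of the variance, and its scores ran from 21.6 to 63.0 in libraries 1 and 2 and from −56.3 to −22.4 in libraries 3 and 4. Of the sum of squares over tested genes, 38.9% went with the number pair, 17.1% with the hairpin, 5.79% with their interaction and 38.2% with libraries inside a line and pair. The 10 markers of squamous epithelium summed to between 20475 and 27103 RPKM in every library, and all 10 passed the filter on low values.

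**Figure D1:**
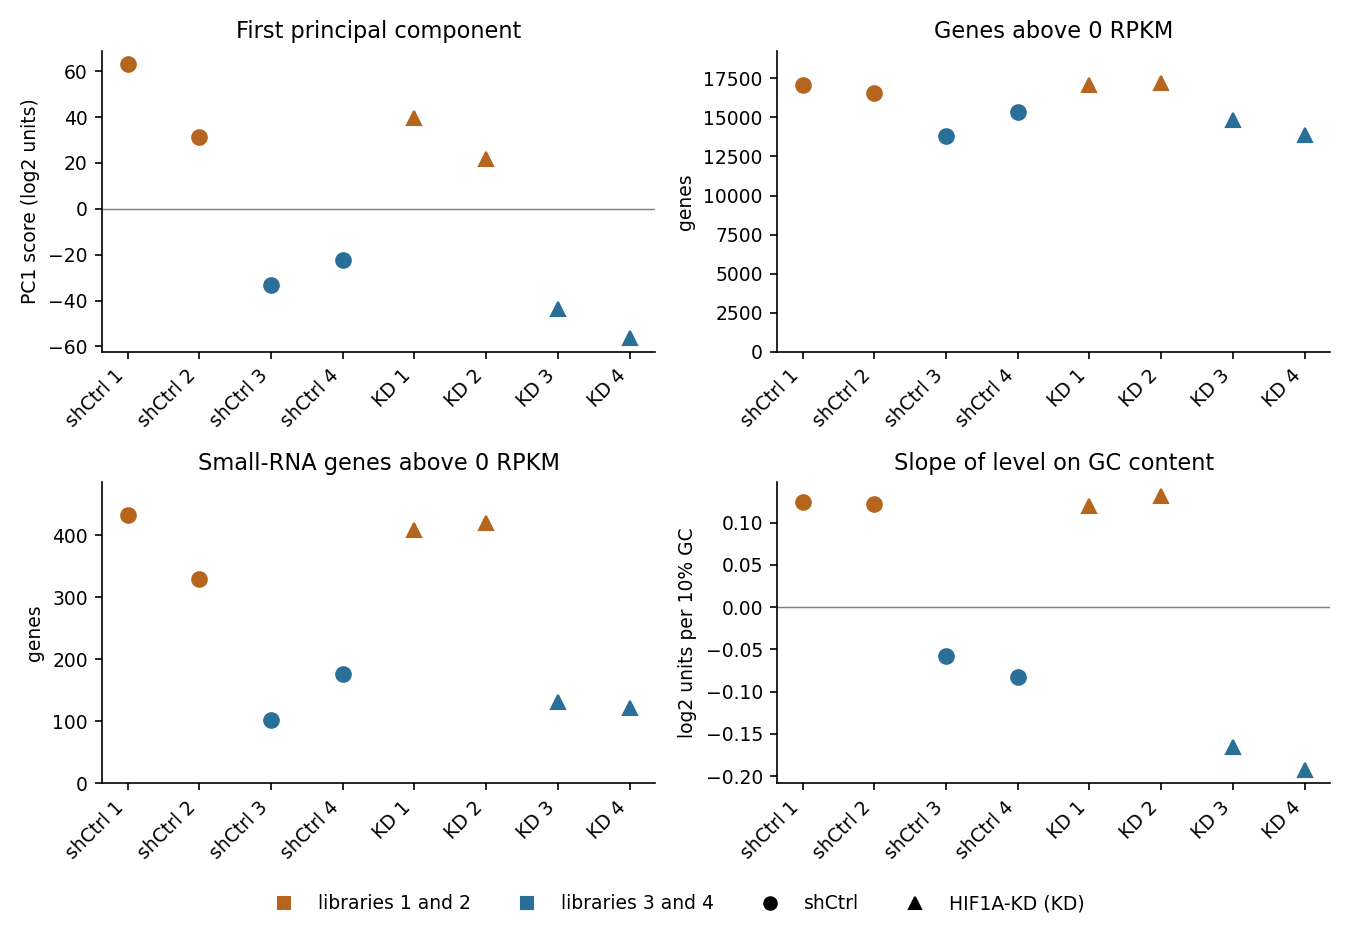
Score on the first principal component (log2 units), number of genes above 0 RPKM, number of small-RNA genes above 0 RPKM and slope of expression level on GC content (log2 units per 10% GC) in each of the 8 libraries, with 1 point per library, circles for shCtrl and triangles for HIF1A-KD. Libraries 1 and 2 lie above libraries 3 and 4 in all 4 panels and in both lines.

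The pairs also parted in how many genes were seen. Genes above 0 RPKM numbered 16580 to 17205 in libraries 1 and 2 and 13799 to 15347 in libraries 3 and 4, while read totals overlapped, at 43205845 to 65326907 and 38068729 to 52401547. Genes for small RNAs (microRNA, small nucleolar and small Cajal body RNA symbols) showed it most plainly: of 2045 such genes, 330 to 433 were above 0 in libraries 1 and 2 and 102 to 176 in libraries 3 and 4. Of the 200 genes under 200 bases that passed the filter on low values given below, 36 passed through libraries 1 and 2 alone, so no median or count over them is given. Libraries were made from total RNA with the NEB Next Ultra kit, and whether reads were counted by strand is not stated in the labels, so a read over such a gene cannot be told from a read over a transcript that contains it.

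MIR3064 is the plainest case, and with MIR24-1 and MIR429 it was picked after its values were seen. With 0 reads in all of libraries 3 and 4, MIR3064 passed the filter on low values through libraries 1 and 2 alone. The precursor hairpin of MIR3064, from RefSeq on GRCh38.p14 at chr17:64500774-64500839, minus strand, is printed with its mature arms in capitals.
MIR3064: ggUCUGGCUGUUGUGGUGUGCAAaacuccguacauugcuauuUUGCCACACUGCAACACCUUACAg
Over that stretch of 66 bases, libraries shCtrl 1 to 4 held 61, 12, 0 and 0 reads and HIF1A-KD 1 to 4 held 79, 66, 0 and 0. The MIR24-1 locus held 99, 20, 0 and 21 reads in shCtrl 1 to 4 and 92, 44, 0 and 0 in HIF1A-KD 1 to 4. The MIR429 locus held 99, 19, 10 and 9 reads in shCtrl 1 to 4 and 53, 44, 12 and 0 in HIF1A-KD 1 to 4. At MIR3064 and MIR429 both libraries of the first pair exceeded both of the second in each line, and at MIR24-1 shCtrl 4 and shCtrl 2 were level, at 6.46 and 6.81 RPKM. Mature products of these loci follow, to show which microRNAs the genes name, with the seed (bases 2 to 8) in capitals.
hsa-miR-3064-5p: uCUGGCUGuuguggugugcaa
hsa-miR-3064-3p: uUGCCACAcugcaacaccuuaca
hsa-miR-24-1-5p: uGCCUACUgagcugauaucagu
hsa-miR-24-3p: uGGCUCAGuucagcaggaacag
hsa-miR-429: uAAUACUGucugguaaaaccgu
The 5 arms have 5 different seeds, so no seed group is formed among them, and reads over these hairpins do not measure the mature forms.

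Across all 11899 tested genes (at least 0.5 RPKM in at least 4 libraries) the difference between the pairs ran alike in both lines. A gene was counted as set apart when, in each line, both libraries of one pair lay above both of the other, in one direction, and the fitted log2 difference was at least 1. That held for 1078 genes, 9.06% of those tested: 660 (5.55%) higher in libraries 1 and 2 and 418 (3.51%) higher in libraries 3 and 4. A log2 difference here is libraries 1 and 2 minus libraries 3 and 4 on the log2(RPKM + 0.1) scale with the hairpin as a term, which understates changes of low genes. Its standard error (SE) comes from the fit to all 8 libraries. Of these, 52 and 16 were under 0.5 RPKM in all 4 libraries of their lower pair, and so passed the filter through the pair where they were high. Separation without a size limit held for 4494 genes (37.8%), of which 3416 were under 2-fold. Just inside the limit, between 1 and 1.1, lay 229 genes, and just outside, between 0.9 and 1, lay 304. The median over all tested genes was 0.03, with 52.2% above 0, and the median SD inside a line and pair was 0.30 log2 units. Across genes, which are not replicates, the differences in the 2 lines correlated at 0.739 (Pearson).

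**Figure D2:**
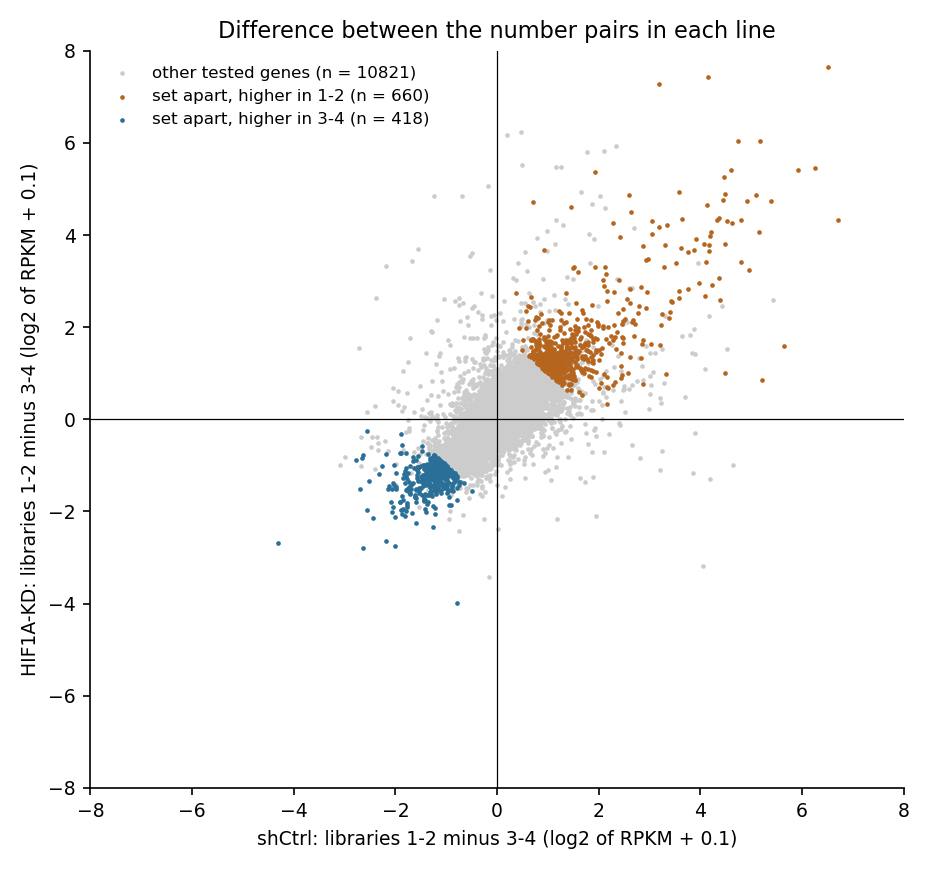
Difference between libraries 1 and 2 and libraries 3 and 4 for each of the 11899 tested genes, in shCtrl on the horizontal axis and in HIF1A-KD on the vertical axis, both in log2 units of RPKM + 0.1. The 660 genes set apart and higher in libraries 1 and 2 and the 418 higher in libraries 3 and 4 lie in opposite corners, as the counting rule requires.

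Late cornified envelope genes had the highest median of any list with more than 1 tested gene. Fewer cells of a layer and less RNA per cell cannot be told apart in these bulk libraries. All 17 tested genes of a list of 20 had a log2 difference above 0, with a median of 1.77 against 0.03 over all tested genes, and 5 of them (LCE3A, LCE3D, LCE3E, CRCT1 and PRR9) were set apart in both lines, where 5.55% of all tested genes were set apart in that direction. LCE3D (chromosome 1, positions 152551860 to 152552980, hg19), an envelope precursor of the group known to respond to barrier injury, stood at 7690.2, 1934, 746 and 815 RPKM in shCtrl 1 to 4, and 1102, 376, 146 and 165 in HIF1A-KD 1 to 4 (log2 difference 2.18, SE 0.46). Both first-pair libraries exceeded both second-pair libraries in each line, and shCtrl 1 was the highest by far. CRCT1, a neighbour in the same gene cluster on chromosome 1, stood at 5776, 2419.8, 1285 and 1223 RPKM in shCtrl 1 to 4, and 2067, 1271, 292 and 437 in HIF1A-KD 1 to 4 (log2 difference 1.88, SE 0.30). PRR9, a small proline-rich protein of that cluster, stood at 304, 46.4, 16.4 and 16.2 RPKM in shCtrl 1 to 4, and 12.5, 2.37, 1.34 and 2.14 in HIF1A-KD 1 to 4 (log2 difference 2.24, SE 0.69). For both genes the first pair lay above the second in each line, and shCtrl lay above HIF1A-KD at each number. Leaving out shCtrl 1 brought the list median to 0.86 with a count of 5, and leaving out HIF1A-KD 2 or HIF1A-KD 3 gave counts of 14 and 12. The LCE genes are similar in sequence, so how reads were split among them is uncertain.

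Some LCE1 and LCE2 genes of the cluster had larger differences between the pairs in shCtrl than in HIF1A-KD, in size only: LCE1A had log2 differences of 2.52 and 0.16 in the respective lines, LCE1F 2.41 and −0.13, LCE2B 2.40 and −0.09, and LCE1D 2.21 and −0.31. LCE1A stood at 604, 55.0, 24.6 and 40.7 RPKM in shCtrl 1 to 4, and 28.1, 8.79, 26.9 and 7.36 in HIF1A-KD 1 to 4. In shCtrl the pairs were apart, with shCtrl 1 far above shCtrl 2, and in HIF1A-KD libraries 1 and 3 were alike and libraries 2 and 4 were alike. The difference between lines was tested as an interaction, and its unadjusted p was 0.195 for LCE1A and 0.183 for LCE1F (limma), so a difference between lines was not shown for them. In the whole envelope list, 0 of 17 tested genes had an unadjusted limma interaction p under 0.05.

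Other proteins of the cornified envelope followed in part. Of 20 tested genes in that list 6 were set apart, all higher in libraries 1 and 2, against 5.55% of all tested genes, with a list median of 0.38 against 0.03. ASPRV1, the aspartic protease that trims profilaggrin, stood at 171, 20.03, 3.60 and 2.12 RPKM in shCtrl 1 to 4, and 17.7, 5.07, 0.858 and 1.28 in HIF1A-KD 1 to 4 (log2 difference 3.71, SE 0.70). LOR, which encodes loricrin, the main envelope protein of skin, stood at 43.9, 19.4, 2.62 and 10.9 RPKM in shCtrl 1 to 4, and 10.1, 4.17, 1.40 and 0.0214 in HIF1A-KD 1 to 4 (log2 difference 3.19, SE 0.85). Within each line the pairs did not overlap for either gene. FLG2, a filaggrin relative, stood at 57.0, 8.10, 2.01 and 4.46 RPKM in shCtrl 1 to 4, and 17.9, 7.30, 2.64 and 1.48 in HIF1A-KD 1 to 4 (log2 difference 2.64, SE 0.61). CDSN, the corneodesmosin that holds cornified cells together, stood at 142, 29.5, 13.5 and 12.1 RPKM in shCtrl 1 to 4, and 13.9, 3.84, 3.08 and 1.99 in HIF1A-KD 1 to 4 (log2 difference 1.93, SE 0.56). KRTDAP and CNFN, 2 small proteins of the upper layers, were also set apart, with log2 differences of 1.19 and 1.38. Several abundant envelope genes, picked here after their values were seen, did not meet the rule: IVL, involucrin, had a log2 difference of −0.83, CSTA −0.50, PPL 0.32 and TGM1, the crosslinking enzyme, 0.73.

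Among the other genes with the largest differences towards libraries 1 and 2, TREX2, an exonuclease of differentiated keratinocytes, stood at 43.6, 11.5, 1.52 and 1.62 RPKM in shCtrl 1 to 4, and 7.27, 6.23, 1.57 and 0.46 in HIF1A-KD 1 to 4 (log2 difference 3.29, SE 0.48). LGALS7B, a galectin of stratified epithelium, stood at 183, 72.3, 6.13 and 14.8 RPKM in shCtrl 1 to 4, and 394, 120, 41.5 and 29.7 in HIF1A-KD 1 to 4 (log2 difference 3.10, SE 0.49), and it is a near-identical copy of LGALS7, so its level is uncertain. The pairs were apart in each line for both genes. At each number HIF1A-KD stood above shCtrl for LGALS7B, while for TREX2 the lines overlapped in libraries 3 and 4. Neither gene was called for the hairpin in the fit described below. CLDN17, a tight junction claudin, stood at 384, 82.4, 31.3 and 29.3 RPKM in shCtrl 1 to 4, and 202, 75.3, 16.3 and 24.5 in HIF1A-KD 1 to 4 (log2 difference 2.58, SE 0.48). LIPM, a lipase of cornifying cells, had 2.56, NLRP10, an inflammasome-related protein, 2.63, and XKRX 2.41. KRT2, a keratin of the upper epidermis, had 2.03, ID3, an inhibitor of helix-loop-helix factors, 2.05, and GLA, a lysosomal galactosidase, 1.74. TMEM160 stood at 12.5, 14.6, 2.21 and 3.23 RPKM in shCtrl 1 to 4, and 20.8, 17.8, 3.46 and 2.21 in HIF1A-KD 1 to 4 (log2 difference 2.52, SE 0.21) and RPSAP58, a ribosomal pseudogene whose reads may belong to its parent gene, had 2.57. Library 1 far exceeded library 2 for TREX2 and CLDN17 in shCtrl. TMEM160 was nearly even inside the first pair and less so inside the second.

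**Figure D3:**
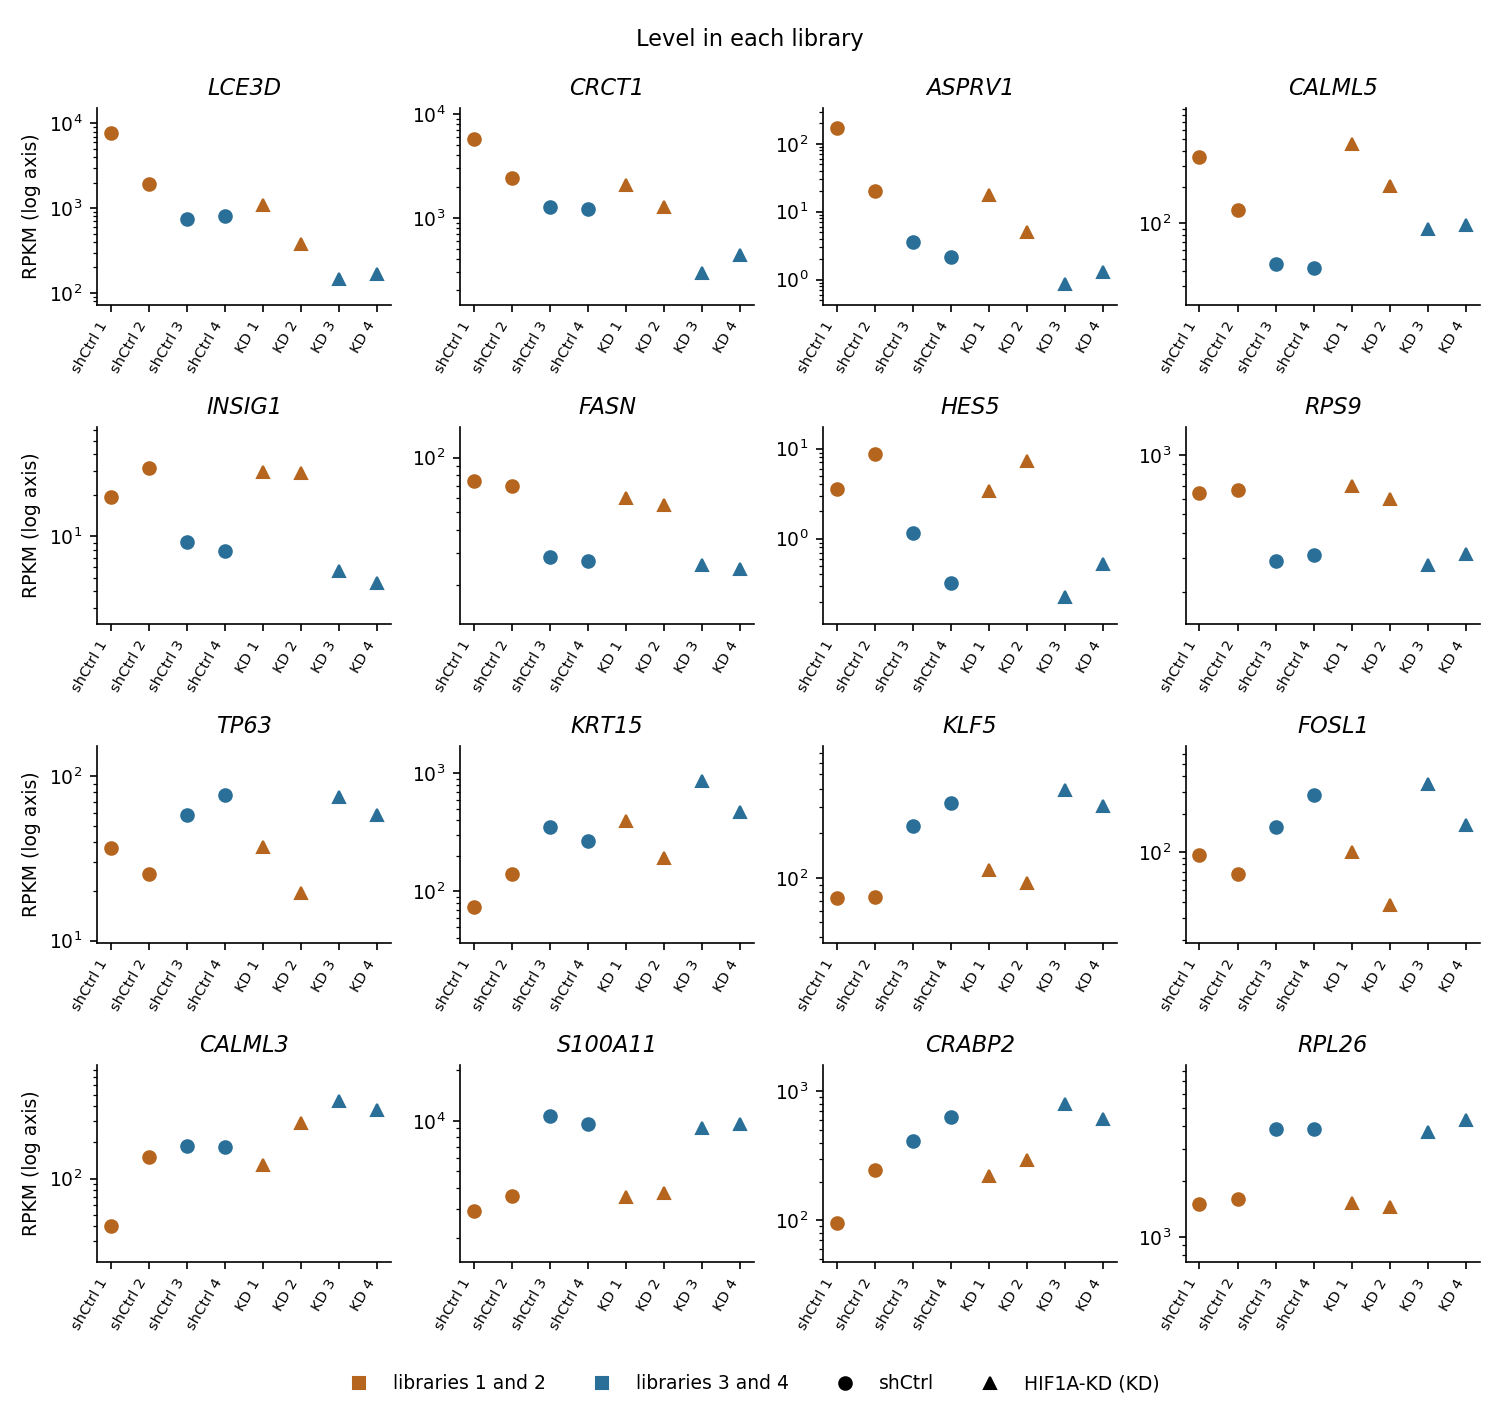
Level of 16 named genes in each of the 8 libraries, in RPKM on a log axis, with 1 point per library, circles for shCtrl and triangles for HIF1A-KD, and colour for the number pair. The first 8 panels show genes higher in libraries 1 and 2 of each line, such as LCE3D and FASN, and the last 8 show genes higher in libraries 3 and 4, such as TP63 and S100A11.

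Surface enzymes, barrier lipids and small secreted proteins held further genes higher in libraries 1 and 2. CALML5, the calmodulin-like protein of differentiating keratinocytes, stood at 357, 127, 45.8 and 41.7 RPKM in shCtrl 1 to 4, and 461, 204, 88.7 and 96.8 in HIF1A-KD 1 to 4 (log2 difference 2.00, SE 0.36), a 4.01-fold difference. SDR9C7, a dehydrogenase of barrier ceramide synthesis, stood at 40.2, 24.6, 4.79 and 6.55 RPKM in shCtrl 1 to 4, and 18.5, 23.4, 5.57 and 4.33 in HIF1A-KD 1 to 4 (log2 difference 2.26, SE 0.21). ALOX12B, the lipoxygenase of the same route, differed by 1.20. Of 22 tested kallikreins and surface proteases, 5 were higher in libraries 1 and 2 (5.55% of all tested genes) and 1 was higher in libraries 3 and 4 (3.51% of all); TMPRSS13 had a log2 difference of 1.47, PRSS27 1.36 and PRSS3 1.23, whereas TMPRSS11A, a membrane serine protease of squamous mucosa, had −1.28. Of 31 tested fatty acid and ceramide genes 4 were higher in libraries 1 and 2 and 0 in libraries 3 and 4, against the same 5.55% and 3.51%, with a list median of 0.25. The count of 4 was 2 without shCtrl 1, and 2 after the GC adjustment described below, under which FASN no longer met the rule. FASN, fatty acid synthase, stood at 74.0, 70.0, 28.5 and 27.2 RPKM in shCtrl 1 to 4, and 59.7, 55.0, 25.5 and 24.4 in HIF1A-KD 1 to 4 (log2 difference 1.28, SE 0.09). Its 4 first-pair values and 4 second-pair values formed separate ranges over both lines together. KRT23, a type I keratin, stood at 603, 97.1, 38.0 and 36.0 RPKM in shCtrl 1 to 4, and 152, 54.8, 18.1 and 26.2 in HIF1A-KD 1 to 4 (log2 difference 2.38, SE 0.56). HMOX1, the heme oxygenase induced by oxidative stress, stood at 273, 69.6, 36.4 and 32.1 RPKM in shCtrl 1 to 4, and 70.0, 46.0, 26.6 and 20.3 in HIF1A-KD 1 to 4 (log2 difference 1.65, SE 0.40), with shCtrl 1 again the highest.

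Genes of sterol synthesis were mostly higher in libraries 1 and 2, by small and even amounts. Of 24 tested genes of the pathway and its regulators (a list of 26) 23 had a difference above 0, against 52.2% of all tested genes. The median was 0.66, against 0.03 over all. Of the 24 genes 6 were set apart, all higher in libraries 1 and 2, where 5.55% of all tested genes were. Separation in both lines without regard to size held for 18, against 37.8% of all genes. INSIG1 (chromosome 7, positions 155089486 to 155101945, hg19), which holds the sterol sensor in the endoplasmic reticulum, stood at 19.6, 31.8, 9.16 and 7.86 RPKM in shCtrl 1 to 4, and 29.8, 28.99, 5.55 and 4.60 in HIF1A-KD 1 to 4 (log2 difference 2.03, SE 0.24). It had 2 separate ranges over the 8 libraries, one for each pair. MVK, mevalonate kinase, had differences of 0.81 and 1.52 in shCtrl and HIF1A-KD, and HSD17B7, a demethylation-step reductase, 1.38 and 1.34. SC5D was the tested gene below 0 (−0.31). The median in shCtrl was 0.57 and in HIF1A-KD 0.74, and leaving out any 1 library kept the median between 0.61 and 0.69 and the count set apart between 5 and 8.

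Promoters were looked at because most members of the sterol and envelope lists lay on the same side of 0. RefSeq windows of 250 bases before to 50 after the gene start (GRCh38.p14) were at hand for 18 of the 26 sterol genes and 18 of the 20 envelope genes. The letters CCAAT on either strand, the box read by the factor NF-Y, stood in 15 of the 18 sterol windows and 3 of the 18 envelope windows, against 35.7% of 27305 windows. They stood in 6 of 15 windows of Notch genes. The letters TATAAA on either strand stood in 9 of the 18 envelope windows and 2 of the 18 sterol windows, and in 1 of the 15 Notch windows, against 11.95% of all. The 100 bases before the gene start of one set-apart gene of each list are printed from RefSeq, plus strand, with the match in capitals.
HSD17B7, chr1:162790602-162790701: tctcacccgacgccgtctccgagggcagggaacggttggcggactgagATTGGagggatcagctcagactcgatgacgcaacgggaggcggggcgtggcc
PRR9, chr1:153217484-153217583: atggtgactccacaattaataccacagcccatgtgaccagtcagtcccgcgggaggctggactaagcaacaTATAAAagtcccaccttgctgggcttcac
A match of letters describes the window and shows neither binding nor a cause.

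Notch genes and cell cycle genes also leaned to libraries 1 and 2. Of 15 tested Notch genes 5 were set apart, all higher in libraries 1 and 2, against 5.55% of all tested genes, with a median of 0.57. They were the ligands DLL1 (2.12) and JAG2 (1.38), the targets HES4 (1.39) and HES5 (3.23) and the receptor-modifying enzyme LFNG (1.70). HES5 stood at 3.54, 8.74, 1.14 and 0.321 RPKM in shCtrl 1 to 4, and 3.37, 7.23, 0.227 and 0.523 in HIF1A-KD 1 to 4. The pairs were apart, and the second-pair values were at most 1.14 RPKM. The other 10 did not meet the rule, and the list median was 0.37, 0.27 and 0.31 without shCtrl 3, HIF1A-KD 1 and HIF1A-KD 4. Of 16 tested cell cycle genes, from a list of 35 whose other members were below the filter, 4 were set apart, CCNB1, CDC20, MCM2 and CDC6, all higher in libraries 1 and 2, against 5.55% of all. CDC6 was under 0.5 RPKM in all of libraries 3 and 4 and so passed the filter through libraries 1 and 2 alone. The count of 4 was 1 with a pseudocount of 1 and 0 of 7 tested with a filter of 2 RPKM. CDC20, an activator of mitotic exit, stood at 4.21, 3.06, 1.08 and 0.563 RPKM in shCtrl 1 to 4, and 1.75, 2.65, 0.532 and 0.832 in HIF1A-KD 1 to 4 (log2 difference 1.81, SE 0.29). The pairs were apart in each line at these low levels, and PCNA, a clamp of DNA synthesis, had −0.44. AREG, an EGF receptor ligand, was higher in libraries 1 and 2 (1.86) and EPGN, another, was higher in libraries 3 and 4 (−1.70).

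Some transcription factors and 2 basal genes were higher in libraries 3 and 4. Of 26 tested squamous transcription factors 3 (TP63, KLF5 and TFAP2A) were higher there and 2 (ID3, at 2.05, and CEBPA, at 1.23) were higher in libraries 1 and 2, against 3.51% and 5.55% of all tested genes, with a list median of 0.11. TP63 (chromosome 3, positions 189349216 to 189615068, hg19), the master factor of squamous basal cells, stood at 36.6, 25.3, 58.5 and 76.8 RPKM in shCtrl 1 to 4, and 37.1, 19.4, 75.3 and 58.3 in HIF1A-KD 1 to 4 (log2 difference −1.22, SE 0.23). KLF5 (chromosome 13, positions 73629114 to 73651680, hg19), a factor of proliferating esophageal basal cells, stood at 72.8, 74.3, 222 and 319 RPKM in shCtrl 1 to 4, and 112, 92.2, 389 and 307 in HIF1A-KD 1 to 4 (log2 difference −1.81, SE 0.14). For both genes the second-pair libraries lay above all first-pair libraries, whichever line they came from. TFAP2A, a factor of squamous keratin genes, had −1.38 and MNT, a partner of the factor MAX, −1.86. KRT15, a keratin of basal cells, stood at 73.5, 142, 353 and 266 RPKM in shCtrl 1 to 4, and 398, 191, 855 and 469.9 in HIF1A-KD 1 to 4 (log2 difference −1.39, SE 0.32). Its ranges overlapped between lines, since HIF1A-KD 1 exceeded both shCtrl 3 and shCtrl 4. Only 2 of 17 tested basal genes, KRT15 and TP63, met the rule, where 3.51% of all tested genes did in that direction, and the list median was −0.12: KRT5 had −0.07 and KRT14 0.08.

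Single genes of several other lists were also higher in libraries 3 and 4. S100A11, a calcium-binding protein and envelope component, was abundant and stood at 2891, 3545, 10740 and 9514 RPKM in shCtrl 1 to 4, and 3510.3, 3694, 9112 and 9552 in HIF1A-KD 1 to 4 (log2 difference −1.52, SE 0.10). CALML3, a calmodulin-like epithelial protein, stood at 40.3, 151, 186 and 184 RPKM in shCtrl 1 to 4, and 129, 292, 444 and 376 in HIF1A-KD 1 to 4 (log2 difference −1.16, SE 0.41). CRABP2, which carries retinoic acid, was 1 of 20 tested retinoid and alcohol genes to meet the rule, against 3.51% of all tested genes in that direction. CRABP2 stood at 95.4, 247, 412 and 637 RPKM in shCtrl 1 to 4, and 221, 292, 801 and 614 in HIF1A-KD 1 to 4 (log2 difference −1.60, SE 0.30). In S100A11 the pairs were far apart and even, whereas in CALML3 the low value of shCtrl 1 widened the gap. SERPINB2, an inhibitor of the plasminogen activators, stood at 352, 369.9, 703 and 734 RPKM in shCtrl 1 to 4, and 273, 312, 751 and 723 in HIF1A-KD 1 to 4 (log2 difference −1.16, SE 0.10), and SERPINB3 had −1.38. FOSL1, an AP-1 subunit, stood at 94.3, 66.5, 158 and 281 RPKM in shCtrl 1 to 4, and 99.7, 38.4, 346 and 163 in HIF1A-KD 1 to 4 (log2 difference −1.68, SE 0.37), and KLF10, a TGF-beta-induced factor, had −1.57. SAA1, an acute-phase protein, had −1.96, and INHBA, a subunit of activin, −1.36. RMRP, the RNA of a mitochondrial processing enzyme, had −2.39 and rested on HIF1A-KD 4 at 138 RPKM: without that library the value was −1.35. Beside it, RPPH1, the RNA of RNase P, stood at 145 RPKM in HIF1A-KD 4 against 3.91 in HIF1A-KD 3.

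Among the genes with the largest differences towards libraries 3 and 4, CCNK, a cyclin of transcription elongation, stood at 19.5, 21.2, 69.5 and 69.8 RPKM in shCtrl 1 to 4, and 24.4, 25.7, 85.2 and 92.6 in HIF1A-KD 1 to 4 (log2 difference −1.80, SE 0.09). FKBP2, a folding enzyme of the endoplasmic reticulum, stood at 37.0, 42.3, 135 and 157 RPKM in shCtrl 1 to 4, and 44.7, 46.1, 159.7 and 131 in HIF1A-KD 1 to 4 (log2 difference −1.77, SE 0.11). TCEAL4, a transcription elongation factor relative, stood at 16.8, 22.2, 65.7 and 69.1 RPKM in shCtrl 1 to 4, and 18.0, 23.0, 83.7 and 78.5 in HIF1A-KD 1 to 4 (log2 difference −1.89, SE 0.13). In these 3 genes every second-pair library lay far above every first-pair library, and the lines were alike. HMGN3, a nucleosome-binding protein, had −1.81, PALMD −1.97, LYRM5 −2.06 and C4orf32 −1.97. MMP3, a matrix protease, had −1.80, CTNND1, the p120 catenin of adherens junctions, −1.38, and TPM4, a tropomyosin, −1.22.

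Genes of the ribosome and the respiratory chain were set apart in both directions, and many more of them were separated in both lines by less. Of 74 tested cytosolic ribosomal protein genes 4 were higher in libraries 1 and 2 and 4 were higher in libraries 3 and 4 (5.55% and 3.51% of all tested genes), and 61 were separated in both lines at any size, 39 higher in libraries 1 and 2 and 22 higher in libraries 3 and 4, where 37.8% of all tested genes were separated. RPS9, a small-subunit protein, stood at 643, 664, 289 and 309 RPKM in shCtrl 1 to 4, and 699, 596, 277 and 315 in HIF1A-KD 1 to 4 (log2 difference 1.1, SE 0.09). RPL26, a large-subunit protein, stood at 1504, 1611, 3869 and 3839.7 RPKM in shCtrl 1 to 4, and 1525, 1459, 3739 and 4305 in HIF1A-KD 1 to 4 (log2 difference −1.37, SE 0.08). The 8 values of each gene made 2 tight groups, in opposite orders. RPS25 (−1.26), RPS26 (−1.26) and RPL28 were on the side of RPL26, and RPS19 (1.07) and RPL34 on that of RPS9; close copies and pseudogenes of these genes make their levels uncertain. RPL36A, outside the list, stood at 37.4, 41.1, 234 and 193 RPKM in shCtrl 1 to 4, and 41.5, 42.3, 151 and 229 in HIF1A-KD 1 to 4 (log2 difference −2.29, SE 0.15). Of 72 tested respiratory chain genes 7 were higher in libraries 1 and 2 and 4 in libraries 3 and 4, against the same shares of all genes. At any size, 28 were separated in both lines and higher in libraries 1 and 2, and 11 were higher in libraries 3 and 4, against 37.8% of all. COX8A, of complex IV, had 1.3 and NDUFB2, of complex I, 1.32, against UQCRB, of complex III, at −1.56 and ATP5J2, of the ATP synthase, at −1.56.

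The GC content of the transcript moved with the split. Tested genes with an annotated sequence (94.4%) had a rank correlation between GC content and log2 difference of 0.351 across genes, 0.271 in shCtrl and 0.396 in HIF1A-KD. With genes put into 5 equal bins of GC content, the median difference from the lowest to the highest bin was −0.25, −0.09, 0.01, 0.18 and 0.37. Of set-apart genes in the highest bin 289 were higher in libraries 1 and 2 and 39 in libraries 3 and 4; in the lowest bin the counts were 32 and 115. Median GC was 58.0% in set-apart genes higher in libraries 1 and 2, 44.9% in those higher in libraries 3 and 4, and 48.6% over all. After each library's trend on GC content was removed, 808 genes were set apart, 435 and 373 in the 2 directions, and 650 of the 1005 annotated set-apart genes were the same. LCE3A, LCE3D, LCE3E, CRCT1 and PRR9 stayed set apart, as did the 6 envelope core genes named above, joined by 1 in the opposite direction. The sterol count was again 6, with MVK no longer among them, the Notch count went from 5 to 3 and that of the proteases from 5 to 1. The parts of GC content, of small RNA genes and of the number of genes above 0 in the differences were not tested.

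**Figure D4:**
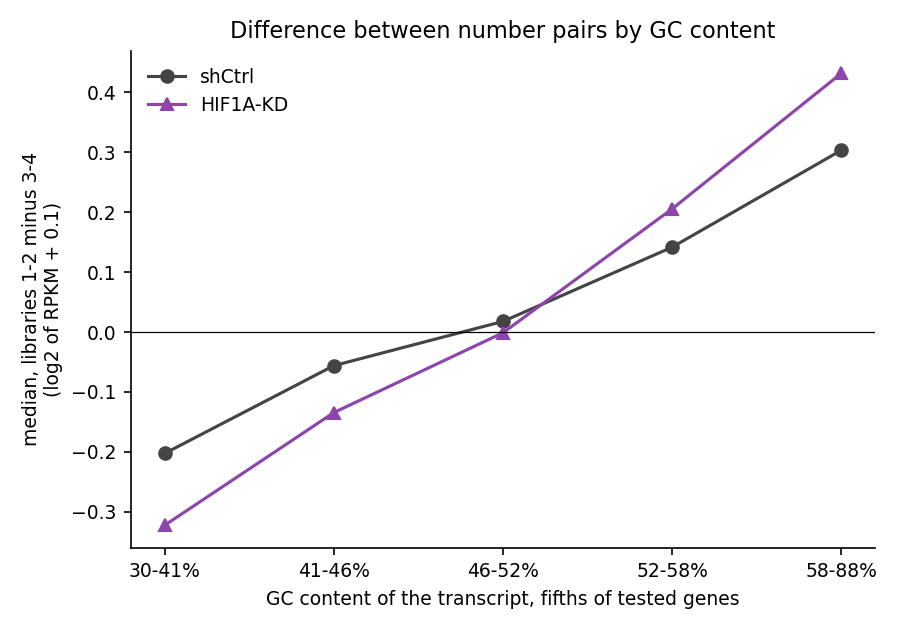
Median difference between libraries 1 and 2 and libraries 3 and 4 (log2 units of RPKM + 0.1) in 5 equal bins of tested genes by GC content of the transcript, for shCtrl (circles) and HIF1A-KD (triangles). The medians climb from below 0 to above 0 with GC content in both lines, from −0.20 to 0.30 in shCtrl and from −0.32 to 0.43 in HIF1A-KD.

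Inside each pair the 2 numbers also differed. Across genes the difference of number 1 from number 2 correlated at 0.748 between the lines, and that of number 3 from number 4 at −0.292. Immediate early genes, the fast response to growth factors and stress, differed inside both pairs: library 1 exceeded library 2 for 33 of 36 genes in shCtrl and 36 of 36 in HIF1A-KD, while library 3 exceeded library 4 for 6 in shCtrl and 32 in HIF1A-KD. FOSB, one of them and picked after its values were seen, stood at 9.77, 0.711, 3.97 and 5.83 RPKM in shCtrl 1 to 4, and 31.0, 0.527, 24.1 and 3.91 in HIF1A-KD 1 to 4. Library 1 was high and library 2 low in both lines, and shCtrl 4 and HIF1A-KD 3 were the higher of their pairs. The list median between pairs was −0.13, with 0 of 36 higher in libraries 1 and 2 and 2 of 36, FOSL1 and KLF10, higher in libraries 3 and 4. The shares of all tested genes were 5.55% and 3.51%. Other lists differed from this: library 1 exceeded library 2 for 7 of 74 ribosomal protein genes in shCtrl and 62 in HIF1A-KD, and library 3 exceeded library 4 for 14 of 21 tested clustered histone genes in each line. All 17 envelope genes and all 21 histone genes were higher in library 1 than in library 2 in both lines.

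Targets of hypoxia signalling were not set apart as a list, and they too differed inside the second pair in opposite directions in the lines. HILPDA, ANKRD37 and ERO1L were picked after their values were seen. Of 30 tested targets 1, the stress gene DDIT4, met the rule (1.24), where 5.55% of all tested genes did in that direction. The list median was −0.01. HILPDA, a lipid-droplet protein induced by HIF, stood at 18.8, 14.4, 47.5 and 12.2 RPKM in shCtrl 1 to 4, and 14.1, 14.7, 6.66 and 58.6 in HIF1A-KD 1 to 4. ANKRD37, another HIF target, stood at 10.6, 8.08, 32.9 and 3.54 RPKM in shCtrl 1 to 4, and 15.1, 11.1, 2.77 and 34.6 in HIF1A-KD 1 to 4. In both genes shCtrl 3 and HIF1A-KD 4 were the 2 highest libraries and were alike, and shCtrl 4 and HIF1A-KD 3 were the lowest. ERO1L, an oxidase of protein folding, stood at 26.1, 65.2, 145 and 82.1 RPKM in shCtrl 1 to 4, and 40.2, 102, 59.5 and 197 in HIF1A-KD 1 to 4, in the same order within the second pair. Library 3 exceeded library 4 for 20 of 30 targets in shCtrl and 7 of 30 in HIF1A-KD, against 41.2% and 59.3% of all tested genes. Of 19 tested glycolysis genes 1, ENO2, was set apart and higher in libraries 1 and 2, against the same 5.55%. Their median was 0.53, against 0.03 over all tested genes.

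**Figure D5:**
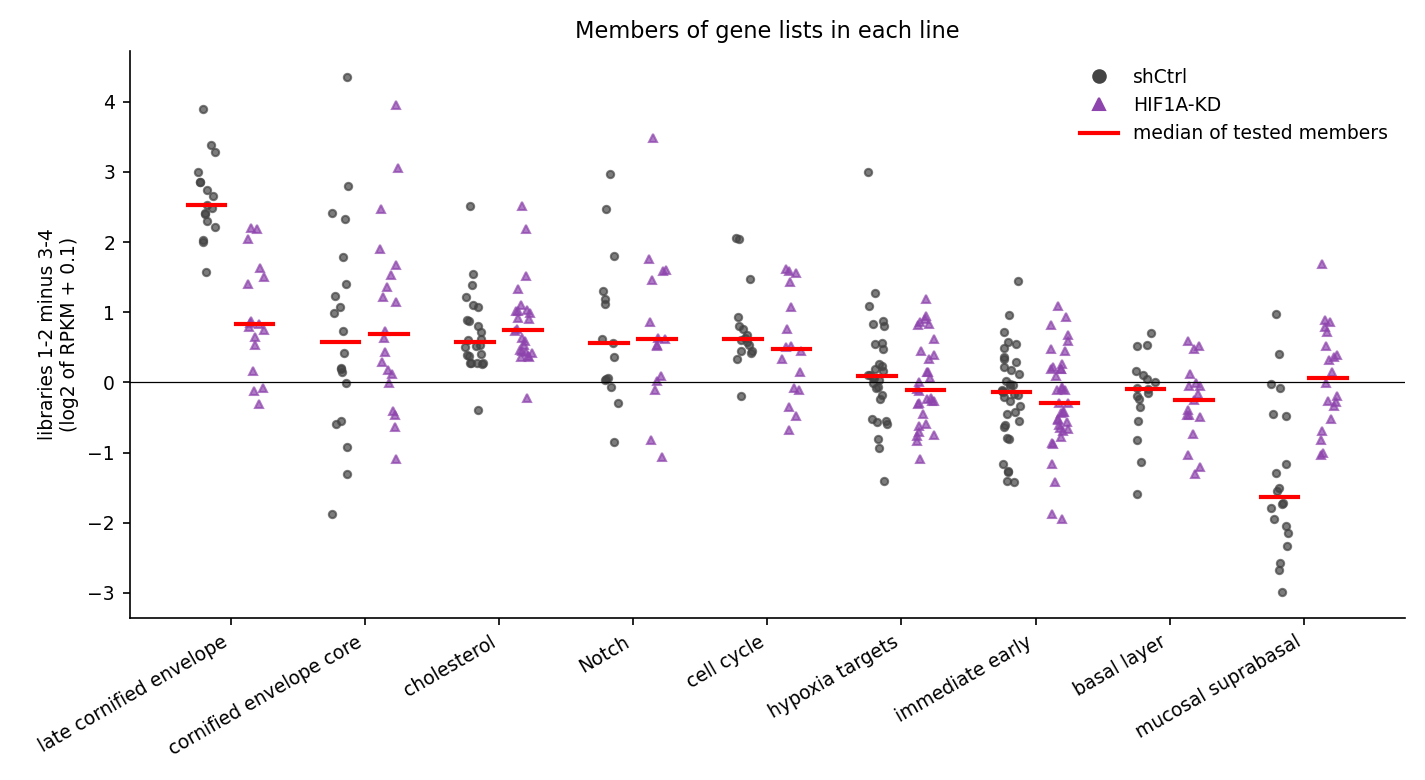
Difference between libraries 1 and 2 and libraries 3 and 4 (log2 units of RPKM + 0.1) for each tested member of 9 gene lists, in shCtrl (circles, left) and HIF1A-KD (triangles, right), with the median as a red line. The late cornified envelope list lies above 0 in shCtrl and closer to it in HIF1A-KD, and the mucosal list lies below 0 in shCtrl and near 0 in HIF1A-KD.

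Whether the lines differed in their response to the number pair was tested as an interaction, and the limma test with Benjamini-Hochberg adjustment called 0 of 11899 genes (0.0%). The smallest adjusted p was 0.926, 199 genes (1.67%) had an unadjusted p under 0.05, and limma-voom on the recovered reads called 0, with 161 unadjusted. With 2 libraries in each line and pair the test has few residual degrees of freedom. Single-line separation of at least 2-fold held for 1300 genes (10.9%) in shCtrl and 1472 (12.4%) in HIF1A-KD. Separation in one line with a log2 difference under 0.32 in the other held for 80 genes (0.672%) in shCtrl and 115 (0.966%) in HIF1A-KD.

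Mucosal genes differed between the pairs in shCtrl more than in HIF1A-KD in size, and none passed the test of that difference. The 20 tested genes had a median difference of −1.63 in shCtrl and 0.07 in HIF1A-KD, and 8 had an unadjusted interaction p under 0.05, against 1.67% of all genes, with 0 after adjustment. KRT4, a keratin of the suprabasal esophagus, stood at 188, 246, 729 and 382 RPKM in shCtrl 1 to 4, and 1984, 1608, 1194 and 1298 in HIF1A-KD 1 to 4 (interaction 1.81, HIF1A-KD minus shCtrl, SE 0.43, unadjusted limma p 0.00405). In shCtrl its libraries 3 and 4 were the higher, and in HIF1A-KD libraries 1 and 2 were. MUC21, a surface mucin of the esophagus, stood at 0.144, 1.08, 3.498 and 2.72 RPKM in shCtrl 1 to 4, and 9.76, 18.3, 10.6 and 13.8 in HIF1A-KD 1 to 4 (−2.57 in shCtrl, 0.15 in HIF1A-KD, unadjusted limma p 0.0287). KRT78, a further keratin of stratified mucosa, had −0.08 and 1.69, with the separation in HIF1A-KD. CRNN, cornulin, had −1.87 and 0.17, and SPRR3, the small proline-rich protein of esophagus, −1.50 and 0.08. The list median of −0.82 over both lines was −0.42 without shCtrl 1 and −0.51 without shCtrl 3, and the count higher in libraries 3 and 4 was 7 without HIF1A-KD 2 and 6 without HIF1A-KD 3. MUC15 was the 1 mucosal gene set apart in both lines, at 11.5, 12.7, 32.1 and 39.0 RPKM in shCtrl 1 to 4, and 20.8, 19.2, 42.8 and 39.5 in HIF1A-KD 1 to 4 (log2 difference −1.29, SE 0.14). Of all tested genes 3.51% were set apart in that direction.

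The interaction was ranked among genes with a mean of at least 10 RPKM in a line and pair, without the symbol types listed below. In that ranking AIF1L, an actin-bundling protein, came first with an unadjusted limma p of 0.000497. AIF1L stood at 32.0, 32.3, 48.0 and 46.2 RPKM in shCtrl 1 to 4, and 55.5, 56.6, 36.5 and 29.7 in HIF1A-KD 1 to 4. Its pairs were separate in both lines and in opposite orders. ITGB7, an integrin subunit, had 0.56 in shCtrl and 1.99 in HIF1A-KD, and KRT75, a hair-type keratin, 2.27 and 0.75, so both were higher in libraries 1 and 2 in each line with unlike size. SPINK7, a protease inhibitor of the esophagus, had −0.49 and 0.81. Among genes separated in shCtrl alone, OASL, an interferon-induced protein, stood at 26.0, 5.86, 1.65 and 1.31 RPKM in shCtrl 1 to 4, and 1.90, 1.83, 1.3 and 1.93 in HIF1A-KD 1 to 4. Among those separated in HIF1A-KD alone, TMPRSS11B, a membrane serine protease, stood at 3.57, 3.08, 3.85 and 4.17 RPKM in shCtrl 1 to 4, and 88.8, 27.8, 11.7 and 18.3 in HIF1A-KD 1 to 4. For OASL shCtrl 1 and 2 stood above the other 6 libraries, and for TMPRSS11B the shCtrl libraries were all low and alike.

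The lines themselves were compared with the number pair as a term, which removes the spread that goes with the pair, and this limma fit called 102 genes (0.857%), 41 higher and 61 lower in HIF1A-KD. The fit without the pair called 5 (0.042%), all of them among the 102. The pair was chosen from these data, so the p-values of the first fit may be too small, and all p-values here measure only the spread between these libraries. Without shCtrl 1, 2, 3 or 4 the count was 61, 75, 21 and 21, and without HIF1A-KD 1, 2, 3 or 4 it was 32, 19, 31 and 18. With each number as a replicate block, a pairing not shown for numbers 3 and 4 (described below), the limma fit called 218 genes. HIF1A itself had a log2 difference between lines of −1.34 (SE 0.24). Its adjusted limma p was 0.0521 with the pair as a term, 0.319 without the pair and 0.0253 with the replicate block. Of the 1078 set-apart genes 18 (1.67%) were called for the hairpin, and 46 (4.27%, against 1.83% of all) with the block.

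Those 18 genes were picked after their values were seen. Of them 7 were higher in libraries 1 and 2 and lower in HIF1A-KD, and 8 were higher in libraries 3 and 4 and higher in HIF1A-KD. The first kind held SPRR2G, LCE3E, KRT75, GSDMA, C20orf27, TPRA1 and EVA1A. LCE3E stood at 2968, 855, 355 and 443 RPKM in shCtrl 1 to 4, and 390.4, 157, 76.1 and 101 in HIF1A-KD 1 to 4 (log2 difference between lines −2.43, SE 0.42, adjusted limma p 0.0491). At each number shCtrl held more than HIF1A-KD. The second kind held IGF2, CXCL17, SYTL5, FAM3D, SERPINB11, TMPRSS11A, DBI and GBP2. CXCL17, a chemokine of mucosal surfaces, stood at 0.775, 1.28, 7.74 and 5.01 RPKM in shCtrl 1 to 4, and 7.99, 14.9, 20.7 and 37.3 in HIF1A-KD 1 to 4 (between lines 2.73, SE 0.36, adjusted limma p 0.0223). TMPRSS11A stood at 0.357, 0.524, 1.41 and 1.78 RPKM in shCtrl 1 to 4, and 4.01, 7.65, 9.60 and 11.3 in HIF1A-KD 1 to 4 (between lines 3.02, SE 0.27, adjusted limma p 0.00542). The other 3 were NOXA1 and LOC645638, higher in libraries 1 and 2 and in HIF1A-KD, and SERPINA3, higher in libraries 3 and 4 and lower in HIF1A-KD.

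Marker lists of other cell types were looked at beside these differences, and their part in them was not tested. Fibroblast markers summed to 16.7 to 28.3 RPKM in libraries 1 and 2 and 16.6 to 32.0 in libraries 3 and 4, with 2 of 10 tested and THY1 at 0 in all. Leukocyte markers summed to 25.2 to 59.9 and 58.5 to 117 RPKM, with 2 of 11 tested; PTPRC, CD3E and CD3D were at 0 in all libraries, and CD68, which epithelial cells also hold in lysosomes, gave 23.5 to 115 RPKM in shCtrl and 19.04 to 85.7 in HIF1A-KD. Endothelial markers summed to 1.83 to 15.6 and 0.758 to 1.47 RPKM, with VWF as the 1 of 7 tested. Melanocyte and neural markers summed to at most 2.08 RPKM. Simple-epithelium markers summed to 271 to 1375 and 764 to 1732 RPKM, with KRT19, which squamous epithelium also makes, at 188 to 1648 RPKM.

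Of the other lists, NRF2 targets had 3 of 26 tested genes higher in libraries 1 and 2 and 0 in libraries 3 and 4, where the shares of all tested genes were 5.55% and 3.51%. Interferon-stimulated genes had 0 of 28 and 3 of 28, XAF1, EPSTI1 and GBP1. EPSTI1 passed the filter through libraries 3 and 4 alone, the count of 3 was 0 with a pseudocount of 1, and it ran from 1 without shCtrl 1 to 7 without shCtrl 2. Protease inhibitors had 1 of 18 and 3 of 18, and SERPINA12, a serpin of skin, was the one higher in libraries 1 and 2 (3.18). Targets of p53 (22 tested), clock genes (15) and glucocorticoid targets (12) had 0 in either direction, with medians of 0.09, −0.40 and −0.35. Small proline-rich and S100 genes had 2 of 20 in each direction, with SPRR2B and SPRR2G higher in libraries 1 and 2 and SPRR2F and S100A11 higher in libraries 3 and 4. SPRR2F differed mainly in shCtrl, at −2.56 against −0.25 in HIF1A-KD (unadjusted limma interaction p 0.00733, not called after adjustment). The SPRR2 genes are close copies, so their levels are uncertain.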

How the data were processed

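RNA was sequenced from 8 libraries. The deposited RPKM values were made by the authors; per the submitters' processing notes, which give no roles, these tools were used: TopHat2 2.0.13 with Bowtie2 2.2.3.0, HTSeq 0.6.1, Picard 1.129, SAMtools 1.3.1, FastQC 0.11.5 and bcl2fastq. The table is named as counts, but its values are RPKM: multiplied by gene length, they are whole multiples of 1 step per library (100% within 0.01 of a whole read), which gave the read totals. Gene lengths were unreadable for 597 of 25369 rows, 28 names had turned into dates, and mitochondrial genes were not used here. The second deposited table, a comparison of the lines, was not used.

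Genes that reached 0.5 RPKM in 4 or more libraries were fitted as log2(RPKM + 0.1) with limma 3.58.1 in R 4.3.3 (trend and robust), with hairpin and number pair as terms or with their interaction, two-sided, adjusted by Benjamini-Hochberg at 0.05. The script was tested on simulated data. Alternatives were other pseudocounts, filters and scaling, limma-voom on recovered reads (104 genes called for the hairpin against 102), each library left out, a replicate block and, added after seeing the data, GC-adjusted values, genes of at least 200 bases and a crossed block. GC content came from GENCODE v29 transcripts.

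Same-numbered libraries deviated together across genes (r of 0.754, 0.730, 0.252 and 0.257 for numbers 1 to 4), each above 0.1, and the replicate block paired the libraries by number. The deviations were taken from the mean of each line, so the split between the pairs itself raised these correlations. The differently numbered shCtrl 1 and HIF1A-KD 2 also passed 0.1, at 0.12. Numbers 3 and 4 correlated more when crossed (0.463 for shCtrl 3 with HIF1A-KD 4 and 0.613 for shCtrl 4 with HIF1A-KD 3). The difference of number 3 from number 4 correlated at −0.292 between the lines. Pairing by number was therefore not shown for numbers 3 and 4. Either pairing comes from the data, since the labels do not explain the numbers.

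The members and gene lists were chosen with earlier results of these data known. Named genes were HIF1A, the 15 largest differences in each direction among set-apart genes of at least 10 RPKM in a pair (without symbols starting LOC, LINC, MIR, SNOR, SCARNA, RNU or RN7), up to 3 per direction from each list (the 2 most abundant where none was set apart), the 8 smallest interaction p-values and the 6 largest differences in each single line. The interaction and single-line rankings took genes with a mean of at least 10 RPKM in a line and pair, and left out the same symbols. Other genes named, among them CDSN, CRCT1, MVK, JAG2, HES4, KRT4 and CRNN, were chosen after their values were seen. Some items are not reported here.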

Additional observations from a re-analysis of the deposited data

Results flagged for a closer look

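In 8 of 286 groups of 4 libraries tested among the named genes, 1 library lay apart from the other 3 of its line, by a gap that, as a share of the group's range, passed Dixon's 95% critical value. Chance gives about 1 group in 20. Of the 143 named genes, 118 were set apart by a rule that places both libraries of a pair above both others. The rate of 1 in 20 may therefore not hold for these groups. In shCtrl 1 these were SPRR2G at 5139 RPKM, NFIL3 at 70.05 RPKM, LCE1D at 218.2 RPKM, all above the other 3, and CALML3 at 40.29 RPKM and MMP1 at 9.868 RPKM, below them. In HIF1A-KD 3 they were COL1A1 at 19.17 RPKM, above the rest, and OASL at 1.301 RPKM, below them. In HIF1A-KD 4 it was RPPH1 at 145.0 RPKM, above the rest.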

How the results depend on the processing

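The count of 1078 genes set apart was 642 with a pseudocount of 1 and 1116 to 1269 with 1 library left out. The interaction count was 0 in every alternative run, with the smallest adjusted limma p between 0.0554 (without shCtrl 4) and 1.0. The hairpin count of 102 with the number pair as a term was 15 with no filter and 18 to 75 with 1 library left out. The hairpin count of 5 without the pair was 3 with a pseudocount of 1, 3 with 0.01, 1 with no filter, 8 with median-of-ratios scaling and 0 to 3 with 1 library left out. With the replicate block both hairpin counts were 218, and with HIF1A-KD 3 and 4 crossed in the block they were 1327; the block changed no interaction call. The causes were not tested. Among 118 set-apart named genes, 0 of 1872 comparisons reversed and 54 moved by more than the spread between libraries, 26 of them with GC adjustment, under which 808 genes were set apart with 53.8% of them higher in libraries 1 and 2, against 61.2% as deposited. The rule that picked these genes fixes their direction when 1 library is left out or the pseudocount is changed. Changing the filter leaves their fitted differences as they were. The lack of reversals in those runs is therefore no support for the differences.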
